A study of Mus musculus with 4 samples.

Results

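Elf4 and 5 other genes of the Ets family of transcription factors (Elf3, Ehf, Spib, Ets2 and Spi1) were followed in inflamed distal colon of wild-type and Elf4 knockout mice. These 6 genes were taken by symbol from the deposited table of differentially expressed genes, which holds 4121 genes. RNA was sequenced from 2 wild-type and 2 Elf4-/- samples of C57BL/6 mice aged 8 weeks. Both genotypes had been given 3% dextran sulfate sodium (DSS), which damages the lining of the gut and so brings on colitis, and the tissue was taken at day 6, so no sample here shows the colon without DSS. The sources used here do not say which part of Elf4 was targeted, whether it was lost from all cells, or whether each sample is a separate animal.

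The table gives 1 FPKM value (a fragment count normalised for library size and gene length) per gene and genotype. No value per sample, SD or read depth can therefore be given, and no test between genotypes could be run here. Every listed gene had passed the authors' own test, with q of at most 0.0499971 in the authors' deposited table, and the smallest difference was 2-fold. Rose and fell below mean that a gene is in that table with a higher or lower knockout value. Of all listed genes, 52.0% were lower and 48.0% higher in the knockout.

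Ets factors share a winged helix-turn-helix DNA-binding domain that reads sites built on the core GGAA, and they differ in the cells that express them and in their partners. Elf3 and Ehf are factors of epithelia. Spib and Spi1, which encodes PU.1, act in blood cells, Spi1 foremost in myeloid cells and Spib in B cells, plasmacytoid dendritic cells and the M cells of the gut epithelium. Ets2 is a widely expressed factor that is activated through MAP kinase phosphorylation. Elf4, also known as MEF, is known from NK cells, the quiescence of CD8 T cells and the interferon response.

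The DNA just before the start sites of 3 genes that fell is shown because their proteins bind GGAA themselves. The bases come from RefSeq windows on GRCm38.p6, which matched 4 of the 6 genes (Elf4, Elf3, Spib and Ets2), and only bases outside every annotated exon are printed, on the gene's own strand. For Elf4 the upstream one of its 2 start sites is shown (X:48463133-48463382, minus strand), for Elf3 the stretch 1:135258569-135258722 (minus strand) and for Spib the stretch 7:44532072-44532321 (minus strand). Capitals mark the core, as GGAA on the printed strand or TTCC where it lies on the other strand.
Elf4: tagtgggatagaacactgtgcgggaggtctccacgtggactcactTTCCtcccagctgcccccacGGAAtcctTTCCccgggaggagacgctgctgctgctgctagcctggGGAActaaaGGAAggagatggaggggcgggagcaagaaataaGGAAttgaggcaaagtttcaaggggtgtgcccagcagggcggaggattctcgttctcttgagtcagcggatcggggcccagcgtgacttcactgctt
Elf3: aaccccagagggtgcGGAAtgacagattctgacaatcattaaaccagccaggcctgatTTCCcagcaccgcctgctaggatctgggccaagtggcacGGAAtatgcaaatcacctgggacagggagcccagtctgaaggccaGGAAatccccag
Spib: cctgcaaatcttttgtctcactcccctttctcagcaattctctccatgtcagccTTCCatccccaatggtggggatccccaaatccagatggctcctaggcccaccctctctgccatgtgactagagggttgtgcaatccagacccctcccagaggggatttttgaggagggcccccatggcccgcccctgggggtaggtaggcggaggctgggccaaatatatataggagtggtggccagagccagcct

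These stretches hold 6 cores for Elf4, 4 for Elf3 and 1 for Spib. In the full windows of 300 bases, from 250 bases before to 50 after the start site, the counts were 8 for this Elf4 start, 2 for its other start, 4 for Elf3, 1 for Spib and 1 for Ets2. GGAA on either strand occurred in 96.0% of all 32851 windows, with a median of 3 per window. A window with 8 or more cores, as at the upstream Elf4 start, was seen in 3.72% and one with 4 or more, as at Elf3, in 46.3%. At least 2, as at the other Elf4 start, were seen in 84.6%, and at least 1, as at Spib and Ets2, in 96.0%. The longer sites CCGGAAGT and GAGGAAGT, which contain the core, were found on neither strand in the 5 windows of these genes. They occurred in 3.89% and 3.20% of all windows. A match is a string of letters and was not tested as a binding site.

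Of the 6 Ets genes, 4 fell and 2 rose in the knockout, against 52.0% and 48.0% of all listed genes. The genes that fell were Elf4 itself, the epithelial factors Elf3 and Ehf, and Spib. The genes that rose were Ets2 and Spi1. The largest of these changes was the 13.5-fold fall of Ehf. Centring on the median log2 ratio of all listed genes, -0.76, would shift every log2 ratio below by that amount and turn none of the 6. Every listed gene differs by at least 2-fold, so at these levels no turn was possible, and this is no check of direction. A fall of at least 4-fold was seen for 3 of the 6 genes (24.5% of all listed genes) and a rise of at least 4-fold for 0 of 6 (12.9% of all listed genes).

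**Figure D1:**
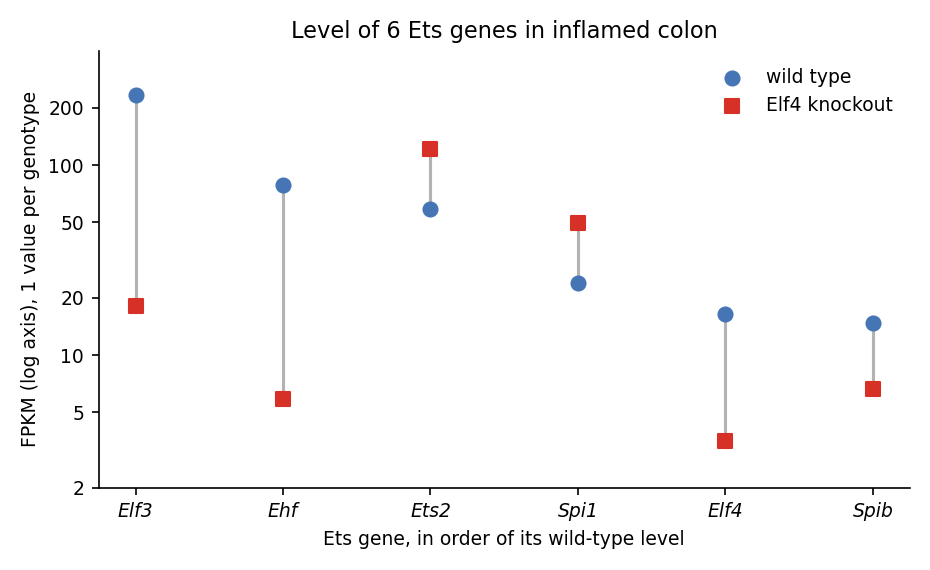
FPKM of the 6 Ets genes on a log axis, with circles for wild type and squares for the Elf4 knockout, 1 value per genotype and no error bar. Elf3, Ehf, Elf4 and Spib have their knockout value below the wild-type value, and Ets2 and Spi1 above it.

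Elf4 (ENSMUSG00000031103; X:48411046-48463132, minus strand, GRCm38; protein-coding, with 3 annotated transcripts) stood at 16.4 FPKM in wild type against 3.51 FPKM in knockout tissue. The knockout value was 21.4% of the wild-type value, a 4.68-fold difference, with p = 5e-05 and q = 0.000372 in the authors' deposited table. The direction is the one the knockout label calls for. With 1 value over the whole gene, reads from any part of it that was not removed count in full. By its log2 ratio of -1.95, computed after adding 1 to both values, Elf4 ranked 711 of the 2141 listed genes that fell, so 33.2% of them moved at least as much. In a bulk sample, fewer cells that express a gene and less RNA per cell cannot be told apart. Of 15 epithelial markers, 14 fell by more than Elf4 and 1 by less. Of the 10 listed T and NK cell markers, 1 fell by more and 9 by less. Of the 3 listed B cell markers, 2 fell by more and 1 by less. Their part in the Elf4 value was not tested.

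Elf3 (ENSMUSG00000003051) had the highest wild-type level of the 6 genes, 234.8 FPKM, against 18.02 FPKM in the knockout. That is a 13.0-fold fall, and 7.68% of the wild-type value was left. Elf3 is an activator of genes of the differentiating intestinal epithelium. In wild type it was the listed gene with the 219th highest level, and in the knockout the 1325th. Its locus in the table, 1:135248561-135284084, spans 35.5 kb, while the annotated gene on the minus strand spans 4.99 kb (1:135253575-135258568). The wider locus also covers Rnpep and the antisense gene Gm26642. Genes with the same locus can still hold separate values, as Ceacam1 and Ceacam2 do (1521 and 19.5 FPKM in wild type). This pair was picked after its values were seen. The locus alone thus does not show whether reads of Rnpep or Gm26642 count in the Elf3 value. The Elf3 value stays uncertain to that extent.

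Ehf (ENSMUSG00000012350; 2:103263433-103303278, minus strand) fell 13.5-fold, from 79.0 to 5.87 FPKM, with 7.43% left. Ehf belongs with Elf3 to the ESE subfamily of epithelial Ets factors. The fall was of almost the same size as that of Elf3, and the Elf3 value was 2.97 times the Ehf value in wild type and 3.07 times in the knockout. By log2 ratio, Elf3 (-3.63) and Ehf (-3.54) ranked 111 and 126 among the 2141 genes that fell. The authors' deposited table gives both q = 0.000372, its lowest value, which 4 of the 6 Ets genes share.

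Epithelial markers fell over the same range. All 15 of 15 epithelial markers were listed and lower, by 2.60-fold to 19.4-fold, and none was at 0. Their median log2 ratio was -3.53 (-1.53 over all listed genes that fell). Their summed level went from 10655 to 821 FPKM. Elf3 and Ehf each fell by more than 11 of these markers and by less than 4. The markers with the largest falls were the keratin genes Krt19 (1672 to 86.3 FPKM) and Krt8 (2335 to 144 FPKM) and the intestinal factors Cdx1 (104 to 6.25 FPKM) and Hnf4a (142 to 8.93 FPKM). What part fewer epithelial cells had in the Elf3 and Ehf values was not tested.

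Other regulators of the epithelium fell as well. The list holds 24 genes, transcription factors apart from the splicing regulator gene Esrp1, which was singled out after its values were seen. Of the 24, 18 were listed and 18 were lower, by 2.83-fold to 38.1-fold. Of these, 8, with Esrp1 among them, fell by more than Elf3 and Ehf and 10 by less. Klf5, a factor of crypt cells, fell from 69.1 to 4.65 FPKM, and Isx, an intestinal homeobox gene, from 32.5 to 1.67 FPKM. Their summed level went from 680.0 to 76.0 FPKM. Some of them, such as Cdx1 and Hnf4a, are also among the epithelial markers above.

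Among 16 genes linked to Elf3 or Ehf by epithelial or inflammatory regulation, 13 were listed, 10 lower and 3 higher. Cldn7, a claudin gene activated by Elf3, fell from 689 to 58.9 FPKM. Tgfbr2, the TGF-beta receptor gene that Elf3 activates in intestinal epithelium and that stromal cells also express, rose from 46.8 to 94.1 FPKM, and its q was 0.000694 in the authors' deposited table. The other genes that rose were Ptgs2, the inducible prostaglandin synthase gene (12.2 to 231 FPKM), and Lcn2, the siderophore-binding lipocalin gene (88.7 to 1163 FPKM). Of the 13, 7 also stand in other lists, mostly among the epithelial markers.

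Spib (ENSMUSG00000008193; 7:44525993-44532071, minus strand) fell from 14.7 to 6.66 FPKM, with 45.3% left. The difference was 2.21-fold, near the lowest the table holds, with q = 0.00312 in the authors' deposited table. Its fall was the smallest of the 4, and by log2 ratio 83.1% of the genes that fell moved at least as much. Its log2 ratio of -1.04 became -0.28 when centred on the median of all listed genes. Of the B cell and plasmacytoid dendritic cell genes linked to Spib, 3 of 14 were listed and 3 were lower. These were the B cell surface genes Ms4a1 (18.8 to 5.62 FPKM), Cr2 (9.07 to 1.28 FPKM) and Fcer2a (4.62 to 0.842 FPKM). They are also the 3 listed B cell markers set beside Elf4 above, so the lists are not separate here. The part of fewer B cells in the Spib value was not tested. Cd79a, Cd79b and Pax5 are not listed and are not analysed here.

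The M cell list moved both ways. M cells are epithelial cells that carry antigen to the lymphoid tissue of the gut and need Spib to mature. Of 11 genes, 8 were listed, 5 higher, with Spi1 itself among them, and 3 lower. Tnfrsf11a, the receptor for RANKL, whose signal starts M cell formation, fell from 29.8 to 6.25 FPKM. Ccl20, a chemokine gene of the epithelium over lymphoid tissue, fell from 9.36 to 2.99 FPKM, where the authors' deposited table gives q = 0.0238. Pglyrp1, a peptidoglycan recognition gene, fell from 712 to 119 FPKM. Ccl9, which myeloid cells also make, rose from 18.7 to 125 FPKM. Gp2, the defining M cell receptor gene, was chosen after its values were seen. It rose from 0.467 to 1.54 FPKM with q = 0.0278 in the authors' deposited table.

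Ets2 (ENSMUSG00000022895; 16:95702075-95721051, plus strand) rose 2.05-fold, from 58.9 to 120.9 FPKM. It became the most abundant of the 6 genes in the knockout, where it was the 278th highest listed gene against the 722nd in wild type. Its q was 0.000372 in the authors' deposited table. The fold was near the lowest the table holds, against a median of 2.95-fold over all listed genes that rose. By log2 ratio, 70.7% of the genes that rose, Ets2 among them, moved at least as much.

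Spi1 (ENSMUSG00000002111; 2:91082390-91115756, plus strand) rose 2.08-fold, from 23.9 to 49.7 FPKM, and the authors' deposited table gives it q = 0.00128. Spi1 is required for macrophages, neutrophils and B cells to form. The folds of Ets2 and Spi1 were almost equal, and the Ets2 value was 2.46 times that of Spi1 in wild type and 2.43 times in the knockout. By log2 ratio, Ets2 (1.03) and Spi1 (1.02) ranked 1400 and 1404 among the 1980 genes that rose.

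**Figure D2:**
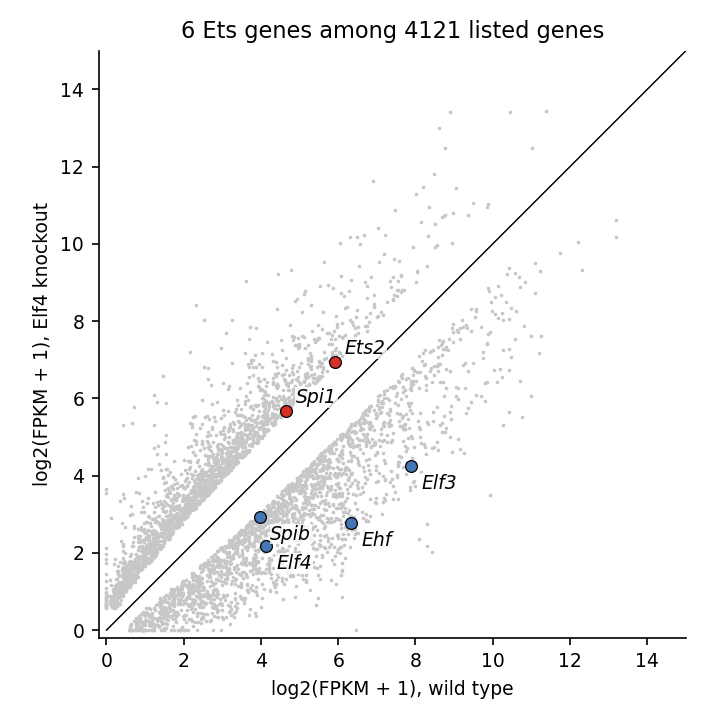
Log2(FPKM + 1) in wild type (horizontal) and in the Elf4 knockout (vertical) for the 4121 listed genes (grey) with the 6 Ets genes named, red where higher and blue where lower in the knockout. Ets2, Spi1 and Spib lie next to the empty band around the diagonal, where the table lists no gene, and Elf3 and Ehf lie far below it.

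Myeloid genes linked to Spi1 rose with it where they were listed. Of 25 such genes, 10 were listed and 10 were higher, by 2.04-fold to 6.41-fold, with a median log2 ratio of 1.29 (1.22 over all listed genes that rose). Itgam, the integrin gene for CD11b, rose from 14.1 to 90.5 FPKM, and Cd14, the lipopolysaccharide co-receptor gene, from 86.5 to 273 FPKM. Il1b rose from 77.6 to 262 FPKM and the Fc receptor gene Fcgr3 from 67.1 to 193 FPKM. The other 15 genes, among them Csf1r, Cybb and Lyz2, are not listed.

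Most listed myeloid markers were higher in the same tissue. The monocyte and macrophage markers numbered 13, of which 5 appeared in the table and 5 were higher, and their summed level went from 159 to 575 FPKM. These were Cd14, Cd68, Mrc1, Msr1 and Marco, and none was at 0. Marco, a scavenger receptor gene, rose most, from 1.89 to 58.0 FPKM. Of 13 neutrophil markers, 10 were listed, 8 higher and 2 lower, and their summed level went from 1279 to 5230 FPKM. By log2 ratio the largest rises were those of Mmp8 (1.74 to 94.1 FPKM), Ngp (0.357 to 38.5 FPKM) and Retnlg (26.3 to 643 FPKM). Ly6g, the largest part of the wild-type sum, fell from 854 to 145.7 FPKM, and Ltf fell from 14.4 to 2.05 FPKM. The part of more myeloid cells in the Spi1 value was not tested.

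**Figure D3:**
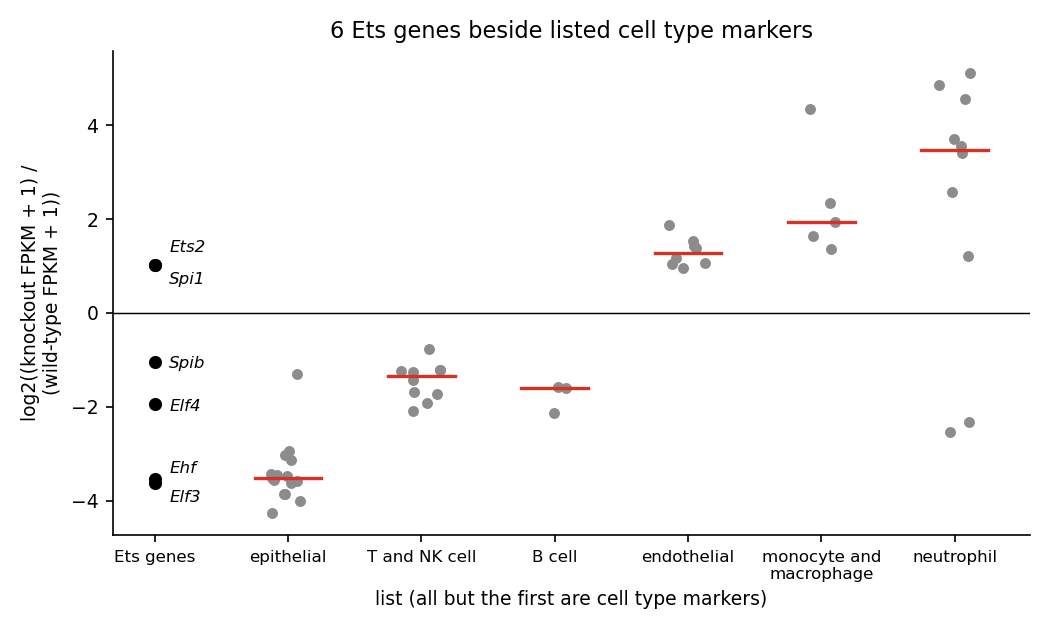
Log2 ratio of knockout over wild type, after adding 1 to each FPKM value, for the 6 Ets genes (black) and for the listed markers of 6 kinds of cell (grey points, with a red line at each median). Elf3 and Ehf lie among the epithelial markers, and Ets2 (1.03) and Spi1 (1.02) above 0. Elf4 lies within the range of each list whose markers all fell (epithelial, T and NK cell, B cell).

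Of 18 genes of matrix breakdown, adhesion and inflammation linked to Ets2, 14 were listed, 13 higher (48.0% of all listed genes) and 1 lower. Their median log2 ratio was 2.01 (1.22 over all listed genes that rose and -0.76 over all listed genes). Mmp13, a collagenase gene, rose from 34.5 to 437 FPKM, and Thbs1, the thrombospondin gene, from 45.2 to 480.0 FPKM. Ptgs2 rose 19.0-fold. Ccnd1, the cyclin D1 gene of dividing cells, fell 14.9-fold, from 62.3 to 4.18 FPKM.

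The MAP kinase pathway that acts on Ets2 and the Elk factors moved both ways, with 12 of 22 genes listed, 7 higher and 5 lower. Among ligands of the EGF receptor, Ereg went up from 52.5 to 491 FPKM, while Areg (42.4 to 18.5 FPKM) and Hbegf (15.2 to 6.14 FPKM) fell. The receptor genes Erbb2 and Erbb3 fell 3.57-fold and 6.12-fold. Mapk3, the kinase ERK1 gene, fell from 169 to 79.1 FPKM. The feedback inhibitor genes Dusp1 and Spry1 rose 12.9-fold and 4.93-fold.

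Partners of Ets factors on DNA were higher where they were listed. Of 23 such genes, 6 were listed and 6 rose (48.0% of all listed genes rose). Cebpb, a C/EBP gene that works with PU.1 in myeloid cells, rose from 105 to 386 FPKM. The AP-1 genes Junb (122 to 329 FPKM), Fosl1 (1.63 to 9.11 FPKM) and Fosb (0.609 to 3.52 FPKM) rose too. Irf4, Irf8, Cebpa and Pax5 are not listed.

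Genes linked to Elf4 by earlier work moved both ways. Of 17, 10 were listed, 7 higher and 3 lower. Klf4, which Elf4 activates in CD8 T cells and which colon epithelium also expresses, fell 4.50-fold, from 122 to 27.2 FPKM. Klf2, the other quiescence factor of that pathway, was chosen after its values were seen and rose 3.40-fold, from 24.2 to 82.3 FPKM. S1pr1, a lymphocyte egress receptor gene that Klf2 activates, was chosen likewise and rose 3.39-fold, from 16.1 to 54.5 FPKM.

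Endothelial cells also express Klf2 and S1pr1. Of 11 endothelial markers, 8 were listed and 8 were higher (48.0% of all listed genes), by 2.06-fold to 3.90-fold. Their summed level went from 114 to 296 FPKM. The T and NK cell list has 17 markers, of which 10 were in the table and 10 were lower (52.0% of all listed genes). They fell by 2.09-fold to 5.47-fold, and their summed level went from 185 to 55.2 FPKM. The part of either kind of cell in the values of Klf2 and S1pr1 was not tested.

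The interferon-induced genes Oas1a (61.1 to 14.6 FPKM) and Cxcl10 (104 to 27.8 FPKM) fell. Inflammatory genes of the Elf4 list rose by more. Trem1, an amplifying receptor gene of neutrophils and monocytes, rose from 1.91 to 22.4 FPKM, S100a8, a calprotectin gene, from 101.4 to 1202 FPKM, and Lcn2 13.1-fold. S100a8 and Lcn2 also stand among the neutrophil markers, and Lcn2 among the genes linked to Elf3 or Ehf. What part more neutrophils had in these values was not tested. Il1rn, Prf1 and Ifnb1 of the Elf4 list are not listed and are not analysed here.

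The order of the 6 genes by level changed between genotypes. FPKM is scaled by transcript length, so levels may be compared between genes. In wild type the order was Elf3, Ehf, Ets2, Spi1, Elf4 and Spib, and in the knockout Ets2, Spi1, Elf3, Spib, Ehf and Elf4. Without a spread over samples, it cannot be said which neighbours in this order differ. Elf4 and Spib were close in wild type (16.4 and 14.7 FPKM), as were Spib and Ehf in the knockout (6.66 and 5.87 FPKM).

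Summed over the 6 genes, the level fell 2.09-fold, from 428 to 205 FPKM. Elf3 made up 54.9% of this sum in wild type and 8.81% in the knockout, and Ehf 18.5% and 2.87%. Ets2 made up 13.8% and 59.1%, and Spi1 5.59% and 24.3%. Spib held 3.44% and 3.26%, and Elf4 3.84% and 1.72%. The Elf3 value was 9.82 times that of Spi1 in wild type, while the Spi1 value was 2.76 times that of Elf3 in the knockout.

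**Figure D4:**
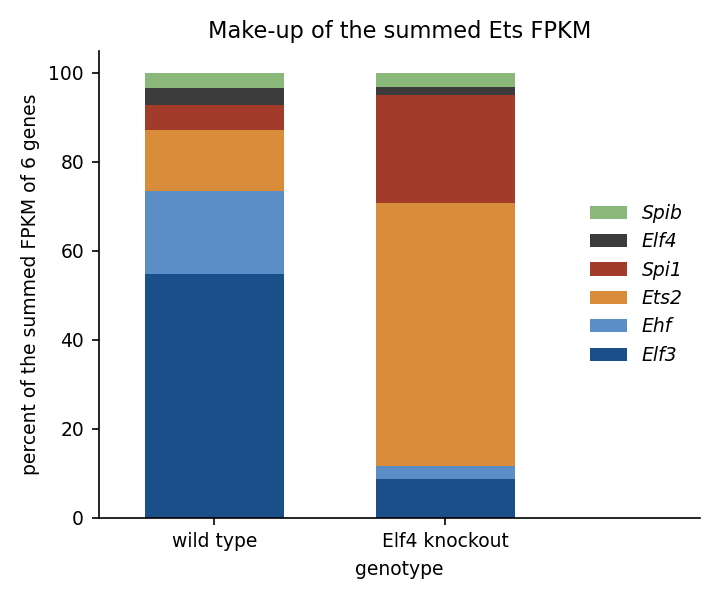
Percent of the summed FPKM of the 6 Ets genes that each gene makes up in wild type and in the Elf4 knockout, 1 value per genotype. Elf3 is the largest part in wild type (54.9%) and Ets2 in the knockout (59.1%).

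The rest of the family was looked up by symbol. Of 26 Ets genes, 13 were listed, 8 higher and 5 lower (48.0% and 52.0% of all listed genes). Their median log2 ratio was 1.03 (-0.76 over all listed genes). Every listed gene differs by at least 2-fold, so a median takes the side of the larger count and adds little to the counts. Under a 4-fold limit, 2 Ets genes were higher and 4 lower (12.9% and 24.5% of all listed genes). The 7 besides the 6 above were Spdef, which fell, and Spic, Erg, Etv4, Elk1, Elk3 and Erf, which rose. Of these, Erg, Etv4, Elk1, Elk3 and Erf were chosen after their values were seen, to complete the family. The other 13, among them Ets1, Fli1, Elf1, Gabpa and Etv6, are not listed and are not analysed here.

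Spdef (17:27714352-27728951), needed for goblet and Paneth cells to mature, fell 6.55-fold, from 17.4 to 2.65 FPKM. Its fall was thus between those of Elf4 and Elf3, and 14 of 15 epithelial markers fell by more. Spic (10:88674772-88685015), the closest relative of Spi1 and Spib and a factor of red pulp macrophages, rose 6.33-fold, from 2.31 to 14.6 FPKM. Of the PU.1 subfamily, Spi1 and Spic were therefore higher and Spib lower.

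Erg, an endothelial factor gene, rose 3.25-fold, from 4.93 to 16.0 FPKM. It is itself on the endothelial list, and of the other 7 listed markers there 1 rose by more and 6 by less. Erg (16:95359169-95586593) and Ets2 are neighbours, 115 kb apart, and both rose. Etv4, a gene of the PEA3 subfamily, rose from 0.849 to 3.41 FPKM, with q = 0.00156 by the authors' deposited table. Elk1 and Elk3, which bind DNA together with SRF and answer to MAP kinases, rose 2.62-fold (2.83 to 7.40 FPKM) and 2.28-fold (10.3 to 23.5 FPKM). Erf, a repressor controlled by ERK, rose 2.25-fold, from 8.16 to 18.4 FPKM. The loci of Elk1 and Elk3 in the table are wider than the annotated genes (53.3 against 17.2 kb and 150.3 against 63.7 kb). As for Elf3, this does not show whether reads of other genes count in their values.

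**Figure D5:**
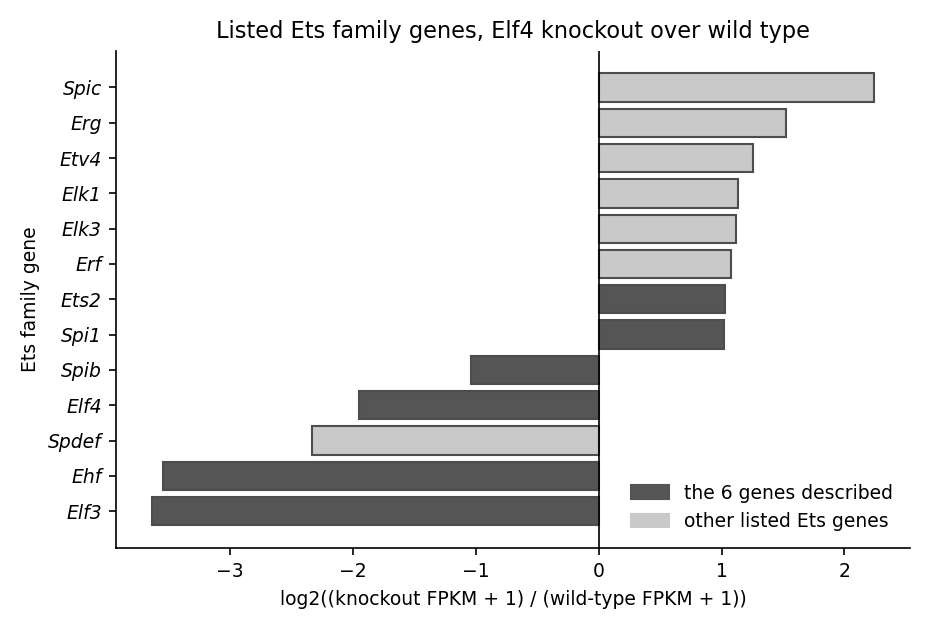
Log2 ratio of knockout over wild type, after adding 1 to each FPKM value, for the 13 listed Ets family genes, with the 6 genes described above in dark bars. The bars run from Elf3 (-3.63) to Spic (2.24), with 5 genes below 0 and 8 above.

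For each of the 6 genes, the 3 listed genes nearest to it by both values were found, as the distance between log2(FPKM + 1) values over the 2 genotypes. With 2 values per gene, nearness means only a like level and a like change. Nearest to Elf3 were Adgrg7 (243 to 16.8 FPKM), an adhesion receptor gene, the immunoglobulin segment Ighv1-59 and Cdh1, the E-cadherin gene (238 to 20.8 FPKM). Nearest to Ehf were Dsc2, a desmosome gene (79.2 to 6.24 FPKM), Tmprss4, a membrane protease gene, and the transporter gene Slc22a18. The genes nearest to Elf4 were Car12, a carbonic anhydrase gene (16.2 to 3.53 FPKM), Acy1 and Plekha8. Those nearest to Spib were Cyb561a3, Gstt2 and Ica1, at distances of 0.0055, 0.023 and 0.042. Birc3, an inhibitor of apoptosis gene (56.5 to 115.6 FPKM), Scarb2 and Fxyd5 were nearest to Ets2. Ass1, for arginine synthesis, Osmr, the oncostatin M receptor gene (22.9 to 49.8 FPKM), and Ccdc50 were nearest to Spi1.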

How the data were processed

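Values came from 1 deposited table. Per the file headers it holds, for each gene, 1 FPKM value per genotype with the p-value and q-value of the authors' own comparison. The authors made each deposited FPKM value from both samples of a genotype, by a step the sources used here do not describe. The submitters' processing notes list Bowtie 0.12.2, Cufflinks 2.2.1 and the build mm8, but not what each was used for. Of the 4121 gene identifiers, 4116 were found in GENCODE M21, and 99.95% of these overlapped the annotated gene on GRCm38. The start and end of 5 of the 6 Ets genes were equal to the annotation. Coordinates are therefore given on GRCm38, counting from 1. The authors' log2 column held 45 spreadsheet errors and was not used.

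A log2 ratio is that of knockout over wild type with 1 added to each FPKM value, so it understates changes of low genes, while folds are from the FPKM values alone. With no values per sample, no test, SD or interval was computed, and depth is unknown. The Ets genes and the 16 gene lists (235 genes, 135 listed) were chosen with earlier results of these data known. Lists are therefore only described, by counts and for some by medians. Their counts stand against 52.0% lower and 48.0% higher over all listed genes. Genes that failed the authors' call are not in the table, so a share listed has no share of all genes beside it. Named are the 6 genes, the 3 listed genes nearest to each, and in each list every listed gene where 5 or fewer were listed. In longer lists these are the 4 largest log2 ratios among genes reaching 1 FPKM in either genotype, with the genes that go against the list's majority. This rule names 84 genes, not all of which are discussed. Promoter windows came from RefSeq on GRCm38.p6. The ratio was tested on simulated data with 200 changed genes. Alternatives were pseudocounts of 0.1 and 0, centring on the table median, FPKM minimums of 1 and 5, q of at most 0.01 and a 4-fold limit. The tools were numpy 2.4.6, pandas 2.3.3 and matplotlib 3.10.9 on Python 3.11.15.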

Additional observations from a re-analysis of the deposited data

How the results depend on the processing

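No paired analysis was possible because values per sample are not in the table used here. Leaving out each sample could not be done either, so the weight of single samples is unknown. Values were compared against a limit of 1.5 times. With pseudocounts of 0.1 and 0, none of the 6 Ets genes moved past this limit. A pseudocount cannot change a direction. Centring on the median log2 ratio of all listed genes (-0.76) gave -1.19 for Elf4, -2.87 for Elf3, -2.78 for Ehf, -0.28 for Spib, 1.78 for Ets2 and 1.78 for Spi1. All 6 moved past the limit, since the shift is the same for each. They kept their direction, but a shift of this size could not turn genes listed at these levels with at least 2-fold differences. With a limit of 4-fold, by construction fewer Ets family genes remained. They were 2 higher and 4 lower, in place of 8 higher and 5 lower. Of all listed genes, 12.9% were at least 4-fold higher and 24.5% at least 4-fold lower, so the whole table leans the same way. Of the medians of 15 gene lists under the other limits, 54 of 59 values moved by less than 1.5 times, 4 moved by more, and 1 changed sign. The median of the M cell list linked to Spib went from 0.90 to -2.09 with the 4-fold limit. Depth, and so counting error, is unknown.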
